A study of Homo sapiens with 12 samples.

Results

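The respiratory chain subunits encoded in the nucleus were examined in MSTO-211H, an established human cell line from a mesothelioma. Members were chosen by name from the gene table: protein-coding rows off the mitochondrial chromosome named NDUFA, NDUFB, NDUFC, NDUFS or NDUFV with a digit, SDHA to SDHD, or starting UQCR, COX4I, COX5, COX6, COX7, COX8 or ATP5. The rule took 90 of 58735 genes: 39 in complex I, 4 in complex II, 9 in complex III, 17 in complex IV and 21 in complex V. The names also cover 2 read-through genes, NDUFC2-KCTD14 and ATP5MF-PTCD1. By name NDUFA4 falls in complex I, although its protein is now counted with complex IV. RNA came from cells that the submitters call mesothelioma-initiating, grown in suspension in RPMI with epidermal and basic fibroblast growth factors, heparin and a supplement named SM1. All 12 libraries are from this line, in 4 groups of 3. Combo received 10 µM of a compound named only QTP and, the next day, 4 Gy of radiation. Rx received QTP with a sham exposure, IR received vehicle and 4 Gy, and Con received vehicle and a sham exposure. Cells were harvested for RNA 48 h later. The labels give the groups only by these short names, and which treatment Rx and Combo stand for was read from the names and the stated design.

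Complexes I and II pass electrons from NADH and succinate to ubiquinone, complex III passes them on to cytochrome c, and complex IV to oxygen. Complexes I, III and IV pump protons across the inner mitochondrial membrane, and complex V, the ATP synthase, makes ATP as the protons return. Complex II is also the succinate dehydrogenase of the citric acid cycle and is built from nuclear genes alone, whereas the other complexes combine nuclear subunits with subunits encoded in mitochondrial DNA. Transcription factors of the NRF1, ETS (GABPA) and YY1 families are known to act on many promoters of the nuclear genes.

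The values are FPKM, reads scaled by gene length and a factor per library, from 1 gene table. That factor was not the summed reads alone. A gene of 1 kb at 1 FPKM stood for 19.1 reads in Combo 3, with 18256090 reads in all. In IR 3 it stood for 13.97 reads, with 14728022 in all. What set the factor was not tested. Whole reads recovered from them summed to 13188257 to 18630958 per library, and the members took 0.530 to 0.595% of those reads in Combo, 0.609 to 0.653% in Rx, 0.607 to 0.749% in IR and 0.620 to 0.684% in Con. The labels do not say whether replicates are separate cultures; the p-values reflect how far these libraries scatter, and that scatter may be technical. In a principal component analysis of all tested genes, IR 3 and Combo 3 lay at opposite ends of the first component. Most medians over all members, and counts at an unadjusted p, are also given without 1 or both of them. Counts of groups without overlap, and medians by complex, subunit group or gene family, are given only with them. Of the markers of the labelled cell type, MSLN averaged 40.1 FPKM, CALB2 20.2, KRT8 476, KRT18 549 and WT1 0.955 FPKM. KRT19 (0.0502) and UPK3B (0.0979) were near 0 and PDPN was listed at 0. Blood, endothelial and stromal markers (PTPRC, CD68, PECAM1, VWF, DCN) averaged 0.0043 to 0.042 FPKM, and COL1A1 averaged 2.49 FPKM.

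Most subunits were expressed at moderate to high levels. A gene was tested where its level averaged 1 FPKM or more across all libraries, and 79 of the 90 members did so: 36 of 39 in complex I, 4 of 4 in II, 9 of 9 in III, 11 of 17 in IV and 19 of 21 in V. Their median level was 21.1 FPKM, and by complex it was 16.5 FPKM in I, 19.3 in II, 27.6 in III, 38.8 in IV and 27.1 in V. The highest member was ATP5F1B, the catalytic beta subunit of ATP synthase, at 342 FPKM. NDUFS5, an accessory subunit, led complex I at 199 FPKM, UQCRH, the hinge subunit, led complex III at 79.6 FPKM and COX7C led complex IV at 96.2 FPKM. In complex II the iron-sulphur subunit SDHB was highest at 26.4 FPKM and the membrane anchor SDHC lowest at 6.41 FPKM. At the low end were NDUFV2, a core flavoprotein subunit of complex I, at 1.33 FPKM, UQCRHL at 1.36 FPKM, COX7B at 12.1 FPKM and ATP5S at 2.39 FPKM.

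**Figure D1:**
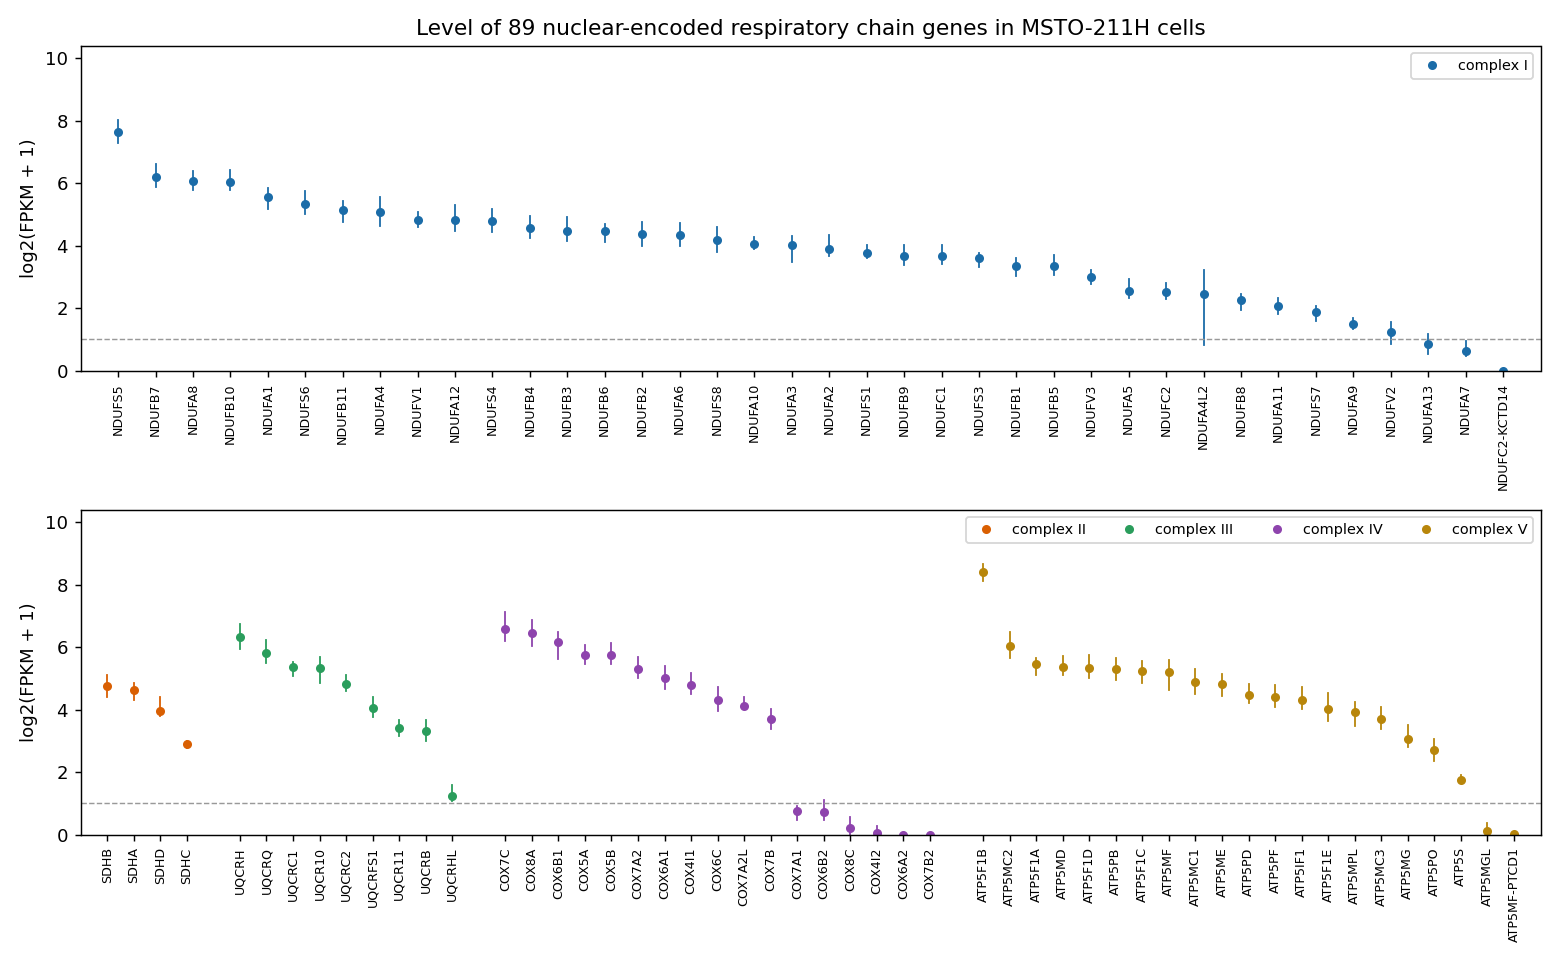
Level of 89 of the 90 members as log2(FPKM + 1), ordered within each complex by mean; the point is the mean of 12 libraries, the line runs from the lowest to the highest library and the dashed line marks 1 FPKM. ATP5F1B at 342 FPKM is the highest, and 11 members lie below the dashed line.

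The 11 members below the limit include the complex IV isoforms that other tissues are known to use. COX6A2 and COX7B2 were listed at 0 in every library, COX4I2 averaged 0.0324 FPKM and COX8C 0.155 FPKM, while COX7A1 and COX6B2 averaged 0.691 and 0.648 FPKM. Their general counterparts were far higher: COX6A1 at 31.1, COX7B at 12.1, COX4I1 at 26.7, COX8A at 87.9, COX7A2 at 38.8 and COX6B1 at 70.4 FPKM. The general isoforms thus made up nearly all of the messages of these nuclear isoform pairs in this line. COX6B2, known from testis, had 0.402, 1.16 and 0.891 FPKM in Combo, 0.452, 1.02 and 0.456 FPKM in Rx, 0.507, 0.408 and 0.769 FPKM in IR and 0.767, 0.564 and 0.375 FPKM in Con. Those ranges overlap between all 4 groups. The rest below the limit were NDUFA13 (0.790 FPKM), NDUFA7 (0.546 FPKM), ATP5MGL (0.0808 FPKM), ATP5MF-PTCD1 (0.0157 FPKM) and NDUFC2-KCTD14, which was listed at 0.

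Levels within a complex depended on the length used. The deposited length equals the union of all annotated exons, which is 1 to 30.8 times the median length of the gene's coding transcripts (median ratio 2.77). On transcript length the order changed: SDHC, 30.8 times longer by the union, became the highest of complex II at 197 FPKM, NDUFA10 moved to 194 FPKM beside NDUFV1 at 198 and NDUFS5 at 200.2, and UQCRC2 led complex III at 246 FPKM. ATP5F1B (929 FPKM) and COX7C (288 FPKM) stayed highest in complexes V and IV, and NDUFV2 lowest of the tested members of complex I at 3.89 FPKM. These levels keep all reads of the union but divide by the median annotated coding transcript. That length was 460 bases for SDHC, 586 for UQCRC2, 703 for NDUFV1 and 856 for ATP5F1B. Short annotated transcripts raise such a level, and which transcripts the cells express was not tested. Sharing of sequence went with lower levels in complex I, though not for every member. In complex I, the 10 members with at least 5% of their exon bases inside another gene on the same strand had a median of 3.49 FPKM, against 20.4 FPKM in the 26 others, with NDUFC2-KCTD14, NDUFA4 and NDUFA4L2 left aside. NDUFA7, NDUFA13, NDUFA11, NDUFA9 and NDUFB8 are among the 10; how reads from shared exons were assigned was not tested. NDUFV2 has a pseudogene, NDUFV2P1, at 2.51 FPKM, above NDUFV2 itself, so its value is uncertain. In all, 45 members have 159 pseudogenes that carry their names, of which 7 averaged at least 1 FPKM. The highest was COX6A1P2 at 8.81 FPKM.

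In Combo, subunits of all 5 complexes were lower than in Con. The mean was lower for 75 of 79 tested members, whereas 51.5% of all 13038 tested genes were lower, and the median difference was -0.21 on the log2(FPKM + 1) scale, against -0.0057 over all tested genes. No member passed limma's test in this comparison after Benjamini-Hochberg adjustment over all genes (0 of 79, with 0% of all genes called), so each difference below is a value, not a call. At an unadjusted p under 0.05, 20 members were lower and 0 higher, against 7.69% of all genes lower, and limma voom on the recovered reads called 0 members and gave 31 at that unadjusted p. In 31 members all 3 Combo libraries lay below all 3 Con libraries, which 12.8% of all genes did. Bulk RNA cannot separate less RNA per cell from a changed mix of cells. Without Combo 3 and IR 3 the median was -0.15 with 73 of 79 lower, and 10 members had an unadjusted p under 0.05. That last count moved with single libraries: in either direction it was 6 without Combo 3 or Con 3, 9 without Combo 2 or Con 2, 33 without Combo 1 or IR 3 and 36 without IR 1. Here and below, the share of all genes at that p is not given for voom or for runs without libraries. Those counts therefore cannot be set against all genes.

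The same picture stands in the single libraries. The median deviation of the 79 members from their 12-library means was -0.067, -0.19 and -0.30 in the 3 Combo libraries, 0.046, 0.054 and -0.039 in Rx, -0.072, 0.13 and 0.36 in IR and -0.061, 0.055 and 0.072 in Con. Combo 3 was the lowest library and IR 3 the highest, and Combo 1 lay level with IR 1 and Con 1. The ranges of Combo and Con therefore met at their edges: Combo 1 at -0.067 and Con 1 at -0.061. The deviation of all tested genes stayed between -0.022 and 0.020 in every library. The deposited values were already near level for the typical gene, with median-of-ratios factors of 0.982 in Combo 3 to 1.02 in IR 3. This median is therefore no independent reference.

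**Figure D2:**
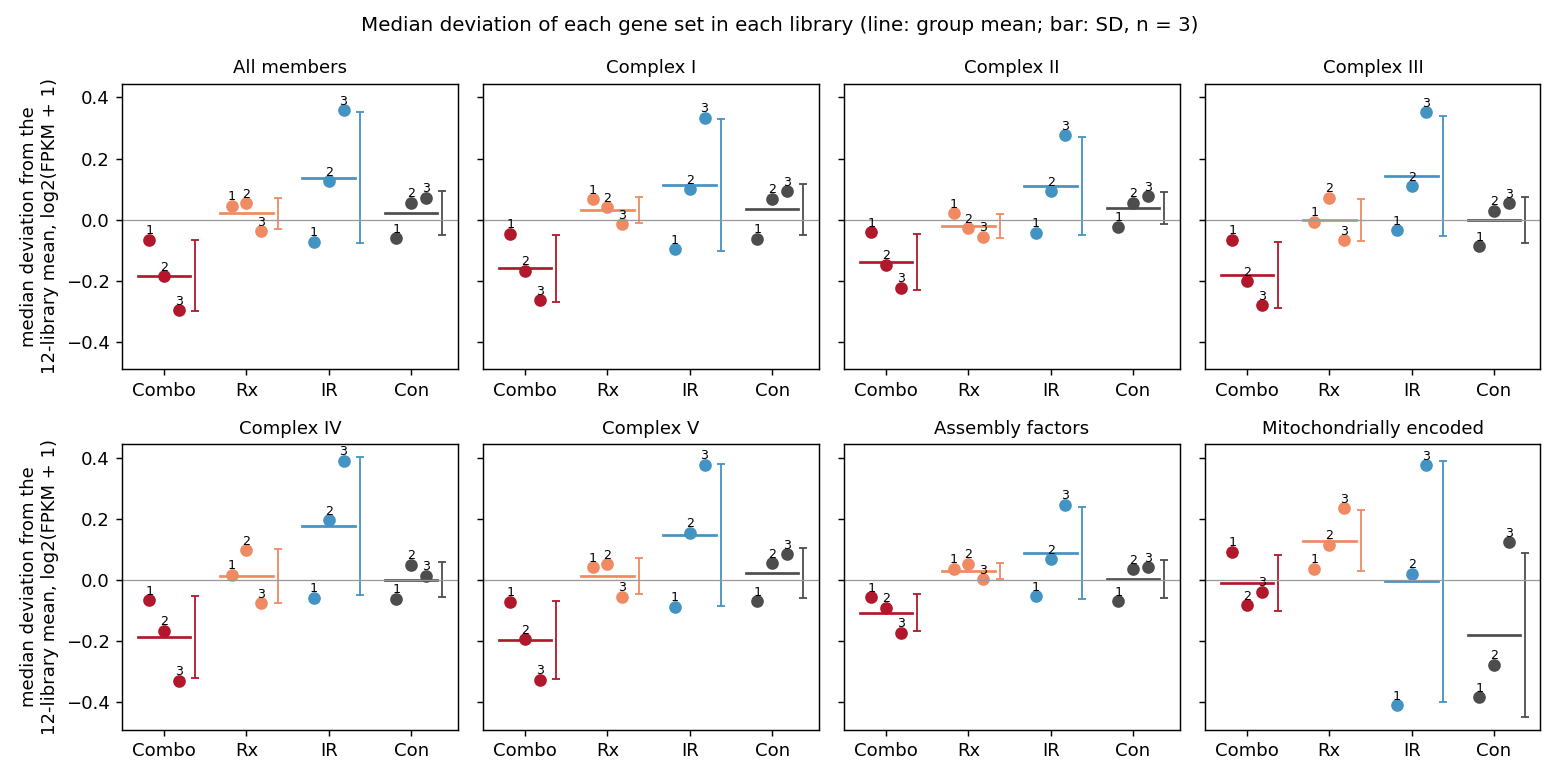
Median deviation from the 12-library mean, log2(FPKM + 1), for all members, each complex, assembly factors and mitochondrially encoded genes; each numbered point is a library, with the group mean and SD (n = 3). The members run from -0.30 in Combo 3 to 0.36 in IR 3, and each complex repeats that order.

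By complex, the median difference between Combo and Con was -0.19 in I, -0.15 in II, -0.23 in III, -0.21 in IV and -0.25 in V. Every tested member of complexes II, III, IV and V was lower in Combo, and 32 of 36 were in complex I. The exceptions were NDUFV2 (0.063), NDUFB8 (0.044), NDUFA4L2 (0.044) and NDUFV3 (0.011). The directions of these medians were the same after TPM scaling, median-of-ratios scaling and voom. Against Rx, whose libraries had the same compound without radiation, 76 of 79 members were lower in Combo (54% of all genes), with a median of -0.21. There 36 members had all Combo libraries below all Rx libraries (12.7% of all genes), 18 were lower at an unadjusted p under 0.05 (6.3%) and 0 were called by limma (0% of all genes) or by voom. Without IR 3 and Combo 3 the median against Rx was -0.15, with 72 of 79 lower and 8 at an unadjusted p under 0.05. Leaving out 1 library, the count at that p in either direction was 2 without Combo 3, 4 without Rx 1, 7 without Combo 2, 8 without Rx 2, 31 without Combo 1, 33 without IR 1 and 34 without IR 3. Under TPM scaling the median against Rx was -0.14, with 67 of the same 79 lower, and 2 of the 4 complex II subunits were then lower. The median over the 17393 genes of that run was 0.078, against -0.014 over all tested genes as deposited.

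Against IR, which had the same radiation without the compound, the gap was widest: 78 of 79 members were lower in Combo (52.6% of all genes) and the median was -0.33. All Combo libraries lay below all IR libraries for 35 members (11.6% of all genes), and 55 were lower at an unadjusted p under 0.05 (11.6% of all genes). Limma called 0 members after adjustment (0% of all genes), as did voom. Voom on the recovered reads gave a member median of -0.28, beside 0.049 over all tested genes. This comparison leans on single libraries. Without IR 1, limma called 43 members, all lower in Combo, among 956 of all genes. Without IR 3 and Combo 3 the median was -0.17, with 72 of 79 lower and 8 at an unadjusted p under 0.05, a count that was 28 without IR 3 and 33 without Combo 3. The share of all genes at that p is not given for these runs either.

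**Figure D3:**
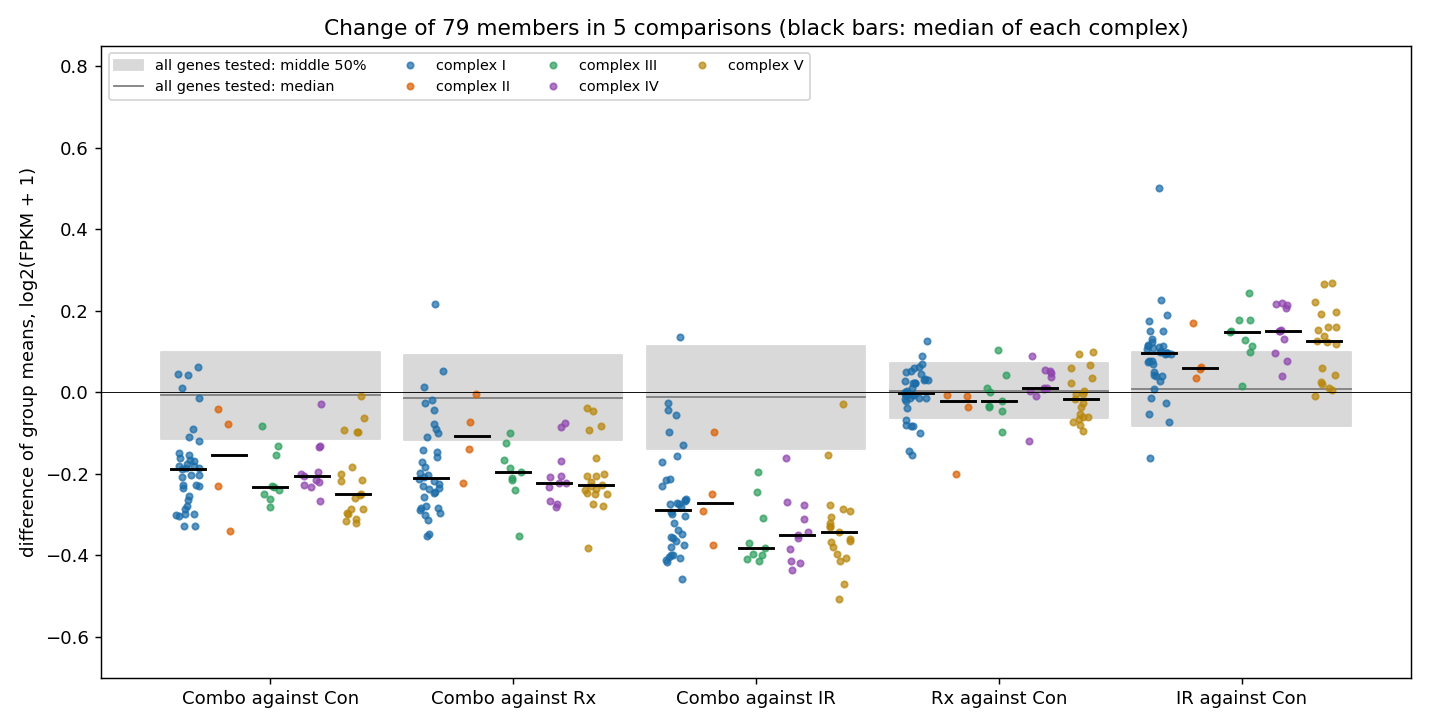
Difference of group means on the log2(FPKM + 1) scale for each tested member in 5 comparisons, coloured by complex; black bars are complex medians and grey bands hold the middle 50% of all tested genes. Members lie mostly below the grey band in the comparisons of Combo, with medians of -0.21 against Con, -0.21 against Rx and -0.33 against IR.

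Complex II held the member with the clearest separation. SDHA (ENSG00000073578, chr5:218241-256700 in hg38), the flavoprotein subunit that oxidises succinate, had 21.7, 20.7 and 19.0 FPKM in Combo, 22.0, 23.2 and 22.6 FPKM in Rx, 25.7, 27.3 and 27.4 FPKM in IR and 24.1, 27.9 and 26.4 FPKM in Con. Every library with QTP lay below every library without it, a separation that no other tested member showed and that 0.23% of all genes showed in that direction. Combo differed from Con by -0.34 (SE 0.070, limma adjusted p = 0.122), a fold of 0.790, and from IR by -0.38 (SE 0.070, limma adjusted p = 0.145). Rx differed from Con by -0.20 (SE 0.070, limma adjusted p = 1), and with QTP averaged over both radiation arms the difference was -0.29 (SE 0.049, limma adjusted p = 0.0689), with a 95% interval of -0.40 to -0.18. That last difference passed the threshold in 2 alternatives, voom on the recovered reads and a limit of at least 5 FPKM. SDHA rests on 2829 to 3916 reads per library. Its pseudogenes SDHAP3 and SDHAP1 can share reads with it: SDHAP3 had 4.27, 5.05 and 4.64 FPKM in Combo, 3.77, 4.82 and 4.05 FPKM in Rx, 4.30, 5.70 and 4.15 FPKM in IR and 4.74, 3.42 and 3.86 FPKM in Con, and SDHAP1 had 3.88, 3.94 and 3.87 FPKM in Combo, 4.62, 3.98 and 3.21 FPKM in Rx, 3.92, 4.53 and 3.61 FPKM in IR and 4.26, 4.96 and 3.98 FPKM in Con. Neither separated the libraries with QTP from those without, but SDHAP1 was below Con in all 3 Combo libraries.

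The other subunits of complex II differed by less. SDHB, which carries the iron-sulphur clusters, averaged 23.0 ± 2.72 FPKM in Combo, 26.9 ± 1.34 in Rx, 28.5 ± 5.17 in IR and 27.1 ± 2.83 in Con (SD, n = 3 each), a difference of -0.23 (SE 0.13, limma adjusted p = 0.466) between Combo and Con with overlapping groups. SDHD, a membrane anchor, had 13.8, 13.4 and 13.1 FPKM in Combo, 15.1, 14.6 and 12.9 FPKM in Rx, 13.5, 15.3 and 20.4 FPKM in IR and 14.001, 14.1 and 14.6 FPKM in Con. Its Combo libraries all lay below Con by a small margin, -0.079 (SE 0.12, limma adjusted p = 0.811), and IR 3 stood above the other libraries. SDHC, the other anchor, had the lowest coefficient of variation of all tested members (4.27% over 12 libraries), with 6.41, 6.41 and 5.87 FPKM in Combo, 6.30, 6.24 and 6.21 FPKM in Rx, 6.45, 6.81 and 6.94 FPKM in IR and 6.40, 6.41 and 6.47 FPKM in Con. Combo and Con overlapped there, with -0.040 (SE 0.056, limma adjusted p = 0.797) and a 95% interval of -0.16 to 0.083, while both Rx and Con were tight and did not overlap, at -0.035 (SE 0.056, limma adjusted p = 1).

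In complex I, 6 of the 7 nuclear core subunits of the peripheral arm were lower in Combo than in Con. NDUFV1, which binds NADH and the flavin, had 25.2, 23.3 and 23.7 FPKM in Combo, 27.3, 26.7 and 27.7 FPKM in Rx, 27.5, 28.98 and 33.0 FPKM in IR and 25.7, 30.3 and 31.0 FPKM in Con. Every Combo library lay below every other library, and the difference from Con was -0.25 (SE 0.084, limma adjusted p = 0.258). NDUFS3, a subunit of the same arm, differed by -0.23, NDUFS8 by -0.29 and NDUFS7 by -0.18, none past the threshold. NDUFS1, the largest iron-sulphur subunit, had 12.6, 11.702 and 11.8 FPKM in Combo, 13.4, 11.1 and 12.9 FPKM in Rx, 12.3, 12.3 and 12.2 FPKM in IR and 12.2, 14.3 and 15.1 FPKM in Con. Con 2 and Con 3 were the highest libraries and all groups overlapped, and NDUFS1 was among the 3 lowest members in both Rx against Con, at -0.14 (SE 0.086, limma adjusted p = 1), and IR against Con, at -0.16 (SE 0.086, limma adjusted p = 0.743). NDUFV2 had 1.32, 1.26 and 1.93 FPKM in Combo, 1.25, 0.790 and 1.43 FPKM in Rx, 1.58, 0.790 and 1.505 FPKM in IR and 1.39, 1.28 and 1.47 FPKM in Con, on 33 to 100 reads per library, and its groups overlapped in every comparison; its difference was 0.14 in Combo against IR, -0.15 in Rx against Con and -0.073 in IR against Con. With NDUFS1 (-0.027) and ATP5S (-0.030) it was among the 3 highest members in Combo against IR.

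Of the 27 tested accessory subunits of complex I, 25 were lower in Combo than in Con, with a median of -0.19 and non-overlapping groups in 11 (51.5% of all genes were lower and 12.8% without overlap). The lowest was NDUFB3, a small subunit of the membrane arm, with 19.6, 17.1 and 16.6 FPKM in Combo, 20.0, 22.3 and 20.5 FPKM in Rx, 17.2, 26.5 and 29.5 FPKM in IR and 21.9, 23.6 and 22.1 FPKM in Con. Combo lay below Con and Rx in every library, at -0.33 (SE 0.15, limma adjusted p = 0.386) against Con, while IR 1 lay among the Combo libraries and IR 3 was the highest. NDUFB6, another membrane-arm subunit, had 19.3, 17.8 and 16.2 FPKM in Combo, 24.8, 21.2 and 21.0 FPKM in Rx, 19.3, 21.4 and 24.5 FPKM in IR and 20.4, 23.8 and 23.5 FPKM in Con. Its Combo libraries were below all of Rx and Con, at -0.33 (SE 0.10, limma adjusted p = 0.232) against Con, and it was also the only member lower at an unadjusted p under 0.05 with radiation averaged over both QTP arms, where 5.17% of all genes were. In IR against Con it was among the 3 lowest members, at -0.054 (SE 0.10, limma adjusted p = 0.922). NDUFS5, the most abundant of them, had 176, 167 and 157 FPKM in Combo, 218, 199.996 and 197 FPKM in Rx, 184, 233 and 257 FPKM in IR and 183, 202 and 218 FPKM in Con. All Combo libraries lay below all others, and the difference was -0.26 (SE 0.12, limma adjusted p = 0.374) from Con and -0.42 (SE 0.12, limma adjusted p = 0.174) from IR. NDUFB7, the highest member in Rx against Con, had 70.7, 57.9 and 61.2 FPKM in Combo, 76.3, 75.04 and 73.5 FPKM in Rx, 68.8, 77.0 and 98.3 FPKM in IR and 64.5, 66.4 and 75.2 FPKM in Con, with 0.13 (SE 0.12, limma adjusted p = 1) between Rx and Con. There Combo lay below Rx in every library but overlapped Con. NDUFA6, another accessory subunit, had 16.9, 15.4 and 14.7 FPKM in Combo, 21.6, 21.5 and 17.7 FPKM in Rx, 16.99, 20.9 and 25.7 FPKM in IR and 17.4, 20.8 and 20.5 FPKM in Con. Combo was below every other library, at -0.30 (SE 0.13, limma adjusted p = 0.373) from Con. NDUFS4, a subunit of the peripheral arm, showed the same order, at -0.30 (SE 0.10, limma adjusted p = 0.278). NDUFB8 was 1 of the 4 members that were higher in Combo, with 4.44, 3.91 and 2.88 FPKM in Combo, 3.99, 4.50 and 2.98 FPKM in Rx, 3.63, 3.83 and 4.19 FPKM in IR and 3.62, 3.62 and 3.43 FPKM in Con. All IR libraries lay above Con, at 0.099 (SE 0.13, limma adjusted p = 0.880), while Combo spread from the lowest library to nearly the highest.

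NDUFA4 and its paralogue NDUFA4L2 differed in how far they scattered between libraries. NDUFA4 averaged 27.6 ± 3.59 FPKM in Combo, 33.7 ± 0.584 in Rx, 37.3 ± 7.98 in IR and 34.2 ± 3.42 in Con (SD, n = 3 each), -0.30 (SE 0.14, limma adjusted p = 0.386) between Combo and Con. NDUFA4L2, known to be induced by hypoxia, had 2.63, 5.37 and 3.06 FPKM in Combo, 2.86, 8.37 and 1.53 FPKM in Rx, 6.97, 5.09 and 4.00 FPKM in IR and 8.26, 4.28 and 0.752 FPKM in Con. It varied within groups far more than any other tested member, with a coefficient of variation of 56.0% over the 12 libraries, and no comparison separated its groups. Its difference was 0.50 (SE 0.57, limma adjusted p = 0.848) in IR against Con and -0.46 (SE 0.57, limma adjusted p = 0.694) in Combo against IR. NDUFA4 differed by -0.40 in Combo against IR. CA9, another gene known to respond to hypoxia and looked up after these values were seen, had 7.39, 12.9 and 12.3 FPKM in Combo, 6.88, 21.2 and 3.85 FPKM in Rx, 12.5, 18.7 and 12.0001 FPKM in IR and 19.0, 12.1 and 1.49 FPKM in Con. For NDUFA4L2 and CA9 Rx 2 was the highest library and Con 3 the lowest. LDHA and PDK1, which are also known to respond to hypoxia and were looked up with CA9, were lowest in Con 3 too, at 86.9 and 3.40 FPKM, but highest in Con 1, at 209 and 6.18 FPKM.

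In complex III all 9 members were lower in Combo than in Con, 5 of them without overlap (51.5% and 12.8% of all genes). UQCR11, a small subunit, was the lowest, with 8.12, 8.10 and 8.02 FPKM in Combo, 7.87, 10.7 and 9.62 FPKM in Rx, 11.5, 9.35 and 11.8 FPKM in IR and 8.81, 11.2 and 10.3 FPKM in Con. The 3 Combo libraries were almost equal and all below Con and IR, at -0.28 (SE 0.12, limma adjusted p = 0.340) against Con, while Rx 1 was as low as Combo. UQCRFS1, the Rieske iron-sulphur protein that accepts electrons from ubiquinol, had 13.8, 13.5 and 12.5 FPKM in Combo, 15.4, 16.4 and 14.9 FPKM in Rx, 14.9, 19.4 and 20.1 FPKM in IR and 14.7, 16.6 and 17.1 FPKM in Con. Every Combo library was below every other library, at -0.26 (SE 0.10, limma adjusted p = 0.327) from Con and -0.41 (SE 0.10, limma adjusted p = 0.165) from IR. UQCRC1, a core subunit, averaged 36.1 ± 3.08 FPKM in Combo, 41.4 ± 3.03 in Rx, 42.9 ± 2.59 in IR and 42.4 ± 0.552 in Con (SD, n = 3 each), and the difference from Con was -0.23 (SE 0.079, limma adjusted p = 0.272). UQCRC2, the other large core subunit, had 25.2, 26.2 and 23.4 FPKM in Combo, 25.4, 28.1 and 26.9 FPKM in Rx, 28.7, 31.1 and 33.8 FPKM in IR and 27.1, 27.6 and 27.6 FPKM in Con. It ordered the groups without overlap as Combo lowest, then Con, then IR, at -0.13 (SE 0.071, limma adjusted p = 0.450) for Combo against Con and 0.18 (SE 0.071, limma adjusted p = 0.717) for IR against Con. UQCR10 was among the 3 highest members in Rx against Con, at 0.10 (SE 0.13, limma adjusted p = 1), and differed by -0.35 (SE 0.13, limma adjusted p = 0.545) between Combo and Rx. UQCRH had 74.7, 69.2 and 60.4 FPKM in Combo, 84.0, 81.1 and 71.5 FPKM in Rx, 74.3, 93.5 and 106 FPKM in IR and 79.7, 78.6 and 81.4 FPKM in Con. Combo and Con did not overlap there, at -0.23 (SE 0.12, limma adjusted p = 0.445), and IR 2 and IR 3 were the highest libraries. Its near copy UQCRHL, at 1.36 FPKM, had the smallest difference of complex III on the log2(FPKM + 1) scale. It was -0.082 (SE 0.13, limma adjusted p = 0.821), with overlapping groups. The added 1 shrinks differences at such a level, and UQCRHL rests on 32 to 61 reads per library. UQCRH and UQCRHL can share reads.

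Complex IV had no member at an unadjusted p under 0.05 in Combo against Con, although all 11 were lower. COX6C (ENSG00000164919) was the lowest, with 17.5, 15.1 and 14.6 FPKM in Combo, 19.1, 19.5 and 18.8 FPKM in Rx, 16.98, 21.9 and 25.8 FPKM in IR and 17.8, 20.4 and 19.0 FPKM in Con. Combo lay below Con and Rx in every library, at -0.27 (SE 0.12, limma adjusted p = 0.389) from Con. COX7C had 89.5, 82.9 and 72.2 FPKM in Combo, 96.2, 101 and 90.1 FPKM in Rx, 82.6, 117 and 139 FPKM in IR and 91.2, 98.3 and 95.1 FPKM in Con. Again Combo lay below Con, at -0.22 (SE 0.15, limma adjusted p = 0.559), and IR spread from the level of Combo to the highest library of all. COX7B, the least abundant of those tested, differed by -0.23 (SE 0.11, limma adjusted p = 0.396), COX7A2 by -0.21 (SE 0.12, limma adjusted p = 0.487), COX8A by -0.22 (SE 0.15, limma adjusted p = 0.553) and COX6A1 by -0.20 (SE 0.13, limma adjusted p = 0.526). COX6B1, which sits on the intermembrane face, had 68.8, 66.5 and 48.1 FPKM in Combo, 67.1, 76.0 and 66.8 FPKM in Rx, 68.8, 85.8 and 89.2 FPKM in IR and 65.1, 72.1 and 71.0 FPKM in Con. Combo 3 was the lowest library by some margin and Combo overlapped Con, at -0.20 (SE 0.14, limma adjusted p = 0.559). COX4I1, the general form of the largest nuclear subunit, had 25.7, 23.3 and 21.9 FPKM in Combo, 26.5, 28.4 and 25.1 FPKM in Rx, 26.0, 30.6 and 35.1 FPKM in IR and 25.4, 25.7 and 26.8 FPKM in Con. Combo and Con overlapped, at -0.13 (SE 0.10, limma adjusted p = 0.593), while Combo lay below IR in every library, at -0.35 (SE 0.10, limma adjusted p = 0.174). COX7A2L, known for its part in joining complexes III and IV, had 15.7, 15.7 and 15.4 FPKM in Combo, 16.3, 17.9 and 15.3 FPKM in Rx, 16.2, 16.4 and 20.3 FPKM in IR and 15.9, 16.0 and 15.9 FPKM in Con. Combo lay just below Con in every library, at -0.028 (SE 0.085, limma adjusted p = 0.916), and IR lay above Con, at 0.13 (SE 0.085, limma adjusted p = 0.758).

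In complex V the 5 subunits of the catalytic head had the lowest median in Combo against Con, -0.30, with values from -0.32 to -0.25. The 4 peripheral stalk subunits had a median of -0.23, the 3 genes of the c ring -0.22 and the 5 membrane and dimer subunits -0.098; these groups were set beside each other without a test. ATP5F1A (ENSG00000152234, chr18:46080248-46104334 in hg38), the alpha subunit, had 39.2, 36.7 and 33.4 FPKM in Combo, 44.0, 43.9 and 42.3 FPKM in Rx, 41.5, 47.3 and 49.6 FPKM in IR and 41.0, 48.7 and 47.7 FPKM in Con. All Combo libraries were below all others, and the difference was -0.32 (SE 0.089, limma adjusted p = 0.185) from Con, -0.33 (SE 0.089, limma adjusted p = 0.171) from IR and -0.25 (SE 0.089, limma adjusted p = 0.545) from Rx. ATP5F1B, the beta subunit that carries the catalytic sites with it, had 321, 289.7 and 277 FPKM in Combo, 356, 341 and 347 FPKM in Rx, 326, 355 and 406 FPKM in IR and 332, 376 and 382 FPKM in Con. Here too Combo was below every other library, at -0.30 (SE 0.10, limma adjusted p = 0.266) from Con. ATP5F1C, the gamma subunit of the central stalk, differed by -0.31 (SE 0.13, limma adjusted p = 0.328) with overlap, and ATP5PB and ATP5PO of the peripheral stalk by -0.30 (SE 0.11, limma adjusted p = 0.289) and -0.29 (SE 0.12, limma adjusted p = 0.353), both with Combo below every other library. ATP5F1E, the small epsilon subunit, had 14.02, 12.4 and 11.3 FPKM in Combo, 15.6, 15.7 and 13.2 FPKM in Rx, 14.9, 18.2 and 22.3 FPKM in IR and 15.1, 16.6 and 14.9 FPKM in Con, and was the lowest member in Combo against IR at -0.51 (SE 0.13, limma adjusted p = 0.165). Combo did not overlap IR or Con there. ATP5MF followed at -0.47 (SE 0.14, limma adjusted p = 0.176) against IR, with Combo 3 its lowest library at 23.6 FPKM.

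ATP5IF1, the inhibitor that blocks ATP hydrolysis by the enzyme, had 17.4, 15.9 and 15.1 FPKM in Combo, 20.0, 20.6 and 18.6 FPKM in Rx, 18.3, 20.2 and 25.3 FPKM in IR and 18.9, 18.9 and 18.7 FPKM in Con. Combo was below every other library, at -0.21 (SE 0.10, limma adjusted p = 0.389) from Con and -0.37 (SE 0.10, limma adjusted p = 0.171) from IR. ATP5MD and ATP5ME, small membrane subunits, were among the 3 highest members in IR against Con, at 0.27 (SE 0.11, limma adjusted p = 0.708) and 0.27 (SE 0.16, limma adjusted p = 0.758), and both overlapped between IR and Con. ATP5ME was also among the 3 highest in Rx against Con, at 0.098 (SE 0.16, limma adjusted p = 1). ATP5MD had 37.5, 35.5 and 35.6 FPKM in Combo, 41.8, 40.9 and 33.9 FPKM in Rx, 39.96, 49.4 and 52.3 FPKM in IR and 37.0, 41.3 and 38.2 FPKM in Con, with IR 2 and IR 3 the highest. ATP5S had the smallest difference among the genes that the name rule puts in complex V, at -0.010 (SE 0.090, limma adjusted p = 0.975), with a 95% interval of -0.21 to 0.19. It belongs to none of the subunit groups of complex V set side by side above.

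**Figure D4:**
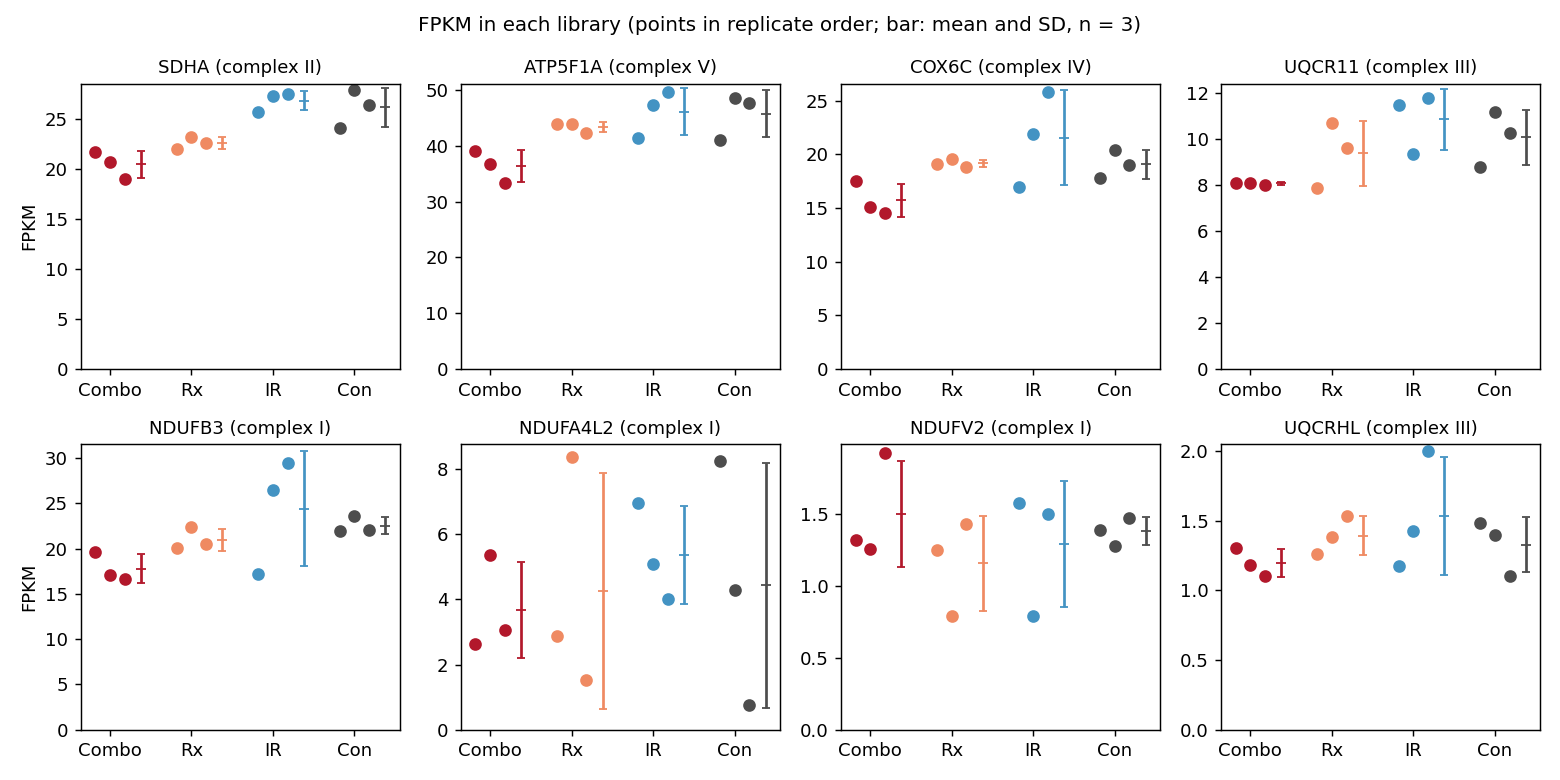
FPKM of 8 members in each library, in replicate order, with the mean and SD of each group (n = 3). SDHA is at 19.0 to 21.7 FPKM in Combo and 24.1 to 27.9 FPKM in Con, and NDUFA4L2 spans 0.752 to 8.37 FPKM with no separation of groups.

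The promoters of the members were read for motifs of the factors named above. RefSeq promoters (GRCh38.p14, 250 bases before to 50 after the start) were at hand for 68 of the 90 members, and were searched on both strands for TGCGCA, the core of the NRF1 site, CCGGAAG, the core of ETS sites, and AAGATGGC, the YY1 site. Genes were counted once where any of their promoters held a match. TGCGCA, which reads the same on both strands, was found for 21 members (30.9%) and for 9.76% of all 27305 genes with a promoter. Those 27305 include genes not expressed here and were not matched to the members by level or base content. CCGGAAG was found for 20 members (29.4%, against 12.2%) and AAGATGGC for 12 (17.6%, against 3.52%). At least 1 of the 3 was found for 39 members (57.4%, against 22.3% of all). CCGGAAG and AAGATGGC can share the bases AAG, so 1 stretch can hold both. A match is a string of letters, not a shown binding site, and these data do not measure binding.
Stretches before the annotated gene are shown for 4 members of different complexes, SDHA and SDHB (II), UQCR11 (III) and COX5B (IV), with matches in capitals and each read 5′ to 3′ on the gene's strand. They lie at chr5:218133-218240, plus strand; chr1:17054171-17054230, minus strand; chr19:1605533-1605599, minus strand; and chr2:97645909-97646039, plus strand.
SDHA: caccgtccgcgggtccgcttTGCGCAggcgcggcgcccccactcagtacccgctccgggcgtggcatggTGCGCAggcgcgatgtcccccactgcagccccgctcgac
SDHB: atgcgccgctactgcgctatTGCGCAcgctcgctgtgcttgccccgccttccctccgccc
UQCR11: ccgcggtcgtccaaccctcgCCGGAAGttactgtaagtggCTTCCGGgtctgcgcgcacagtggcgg
COX5B: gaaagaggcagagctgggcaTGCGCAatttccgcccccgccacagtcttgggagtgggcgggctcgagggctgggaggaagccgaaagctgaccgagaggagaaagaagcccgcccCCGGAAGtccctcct
SDHA shows 2 copies of TGCGCA in this stretch, SDHB 1 copy, UQCR11 CCGGAAG on both strands, and COX5B 1 copy of TGCGCA and 1 of CCGGAAG.

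Radiation alone and the compound alone left smaller differences. In IR, 73 of 79 members had a higher mean than in Con (52.6% of all genes), with a median of 0.11, but 3, UQCRC2, COX7A2L and NDUFB8, were higher without overlap (5.56% of all genes) and 0 passed limma's adjusted threshold (0% of all genes). Voom also called 0, and 2 members, ATP5MD and UQCRC2, had an unadjusted p under 0.05, a count that was 0 without IR 2 or IR 3 or Con 3, 1 without Con 2 and 33 without IR 1. The higher mean rested on IR 3: without it the median was 0.00089, and 40 of 79 were higher. Without IR 1 it was 0.24. TPM scaling moved the median of all genes in this comparison to -0.095 and that of the members to 0.0074. In Rx, 41 of 79 members were lower than in Con (48.3% of all genes), the median was -0.0037, and 2, SDHA and SDHC, were lower without overlap (3.18% of all genes). Limma and voom called 0 members (0% of all genes by limma), and SDHA alone had an unadjusted p under 0.05, with 0 members without Con 2 and 2 without Con 1. TPM scaling placed 73 of the same 79 members lower in Rx, with a median of -0.090, beside -0.082 over all genes.

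The interaction asks whether the difference with QTP was larger in irradiated than in sham cells. Its median over the members was -0.32 (76 of 79 below 0), against -0.025 over all genes, and 25 members had an unadjusted p under 0.05 below 0 (5.31% of all genes). None passed limma's adjusted threshold (0% of all genes) or voom's, and the lowest limma adjusted p of a member was 0.609, so the interaction was not past the threshold for any subunit. Without IR 3 and Combo 3 its median was -0.15 and 1 member had an unadjusted p under 0.05. Leaving out 1 library, that count in either direction was 6 without Combo 3, 8 without IR 3, 9 without Con 1, 11 without Rx 1 or Rx 2, 13 without Combo 2 or IR 2, 38 without Combo 1 and 57 without IR 1. It shares its libraries with the comparisons above. UQCR10, at -0.50 (SE 0.19, limma adjusted p = 0.609), and NDUFB7, at -0.47 (SE 0.17, limma adjusted p = 0.609), had among the lowest values. Averaged over both radiation arms, QTP gave a median of -0.16, with 28 members lower at an unadjusted p under 0.05 (6.17% of all genes). Limma called 0 members and 0.092% of all genes (12 of 13038), and voom called 1, SDHA. Without IR 3 and Combo 3 the median with QTP averaged was -0.082 and 6 members had an unadjusted p under 0.05. Leaving out 1 library, that count in either direction was 11 without IR 3, 12 without Combo 3 or Rx 3, 13 without Combo 2, 14 without Con 2 or Con 3, 15 without IR 2 and 57 without IR 1. Radiation averaged over both QTP arms gave a median of -0.043, with 0 members called by limma (0% of all genes) or voom; without IR 3 and Combo 3 it was -0.069. The count of 1 member at an unadjusted p under 0.05 was 0 without Combo 3 or Rx 1 or IR 2 or Con 2 or Con 3, 2 without Rx 2, 4 without Con 1 and 11 without IR 3. IR and Combo lay on opposite sides of Con in the member medians given above, but the IR median against Con was 0.00089 without IR 3. IR 1, at a deviation of -0.072, lay below every Con library.

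**Figure D5:**
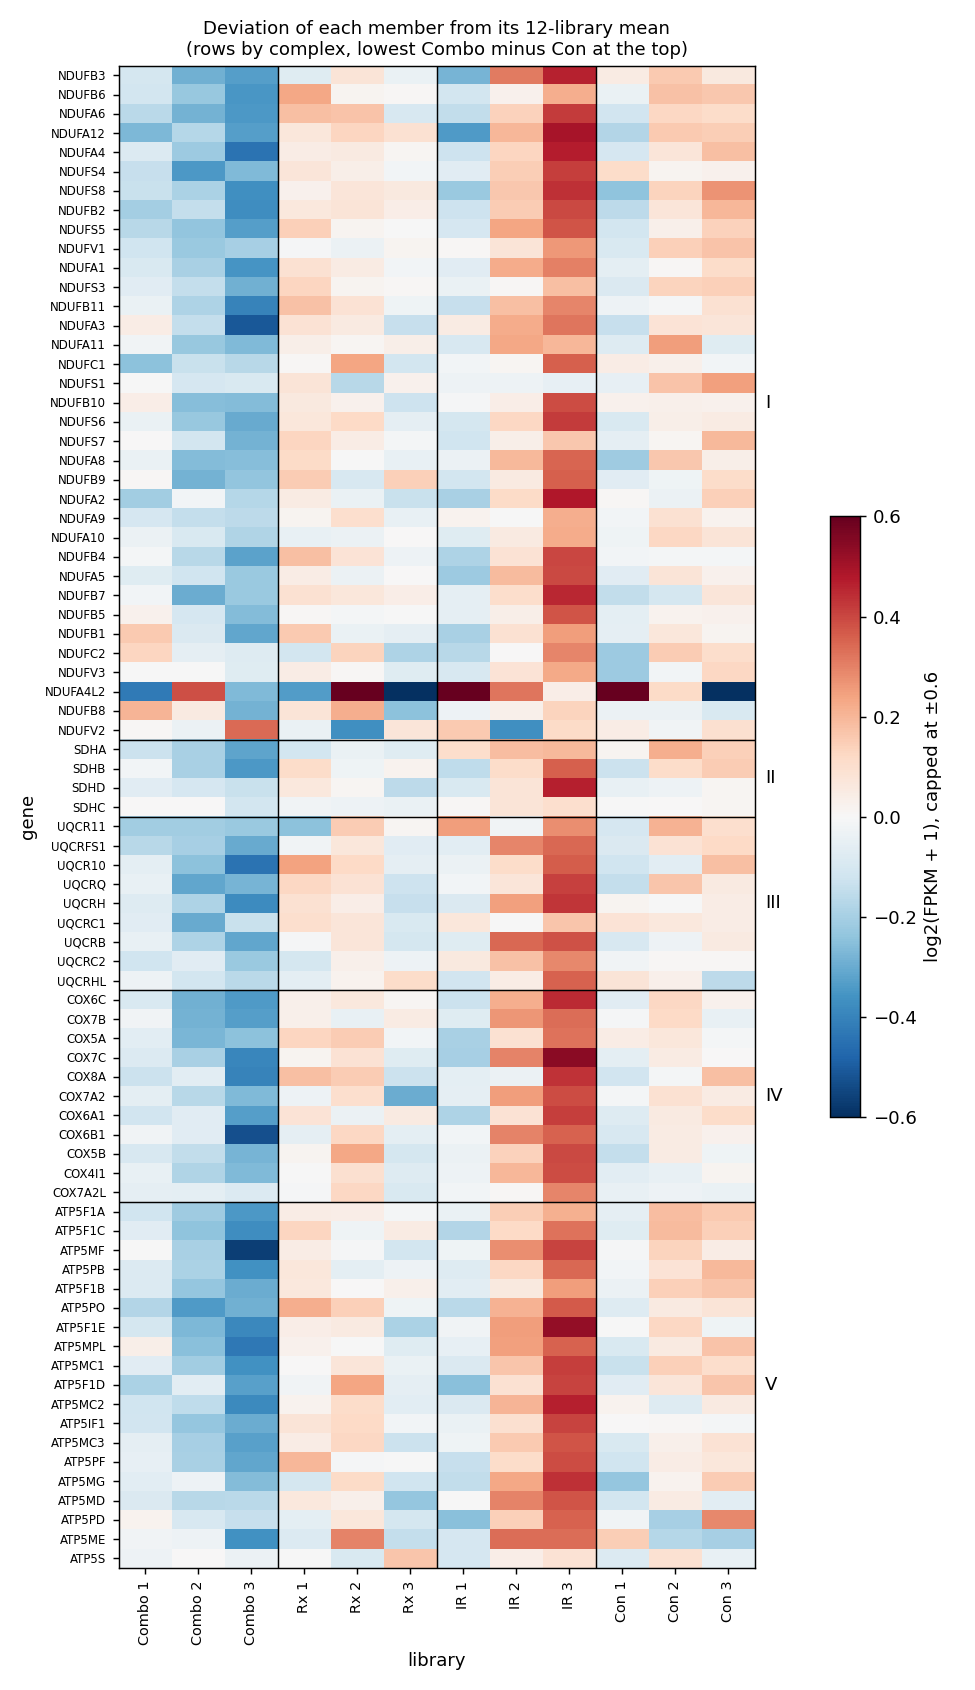
Deviation of 78 of the 79 tested members from its 12-library mean on the log2(FPKM + 1) scale, capped at ±0.6, with libraries in columns and genes by complex, lowest Combo minus Con at the top of each. Combo 3 is the lowest and IR 3 the highest column across all 5 complexes, and NDUFA4L2 varies within groups.

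Assembly factors, which build the complexes without staying in them, showed a smaller difference. Of 57 listed, 53 were tested, and 48 had a lower mean in Combo than in Con (51.5% of all genes), with a median of -0.12. At an unadjusted p under 0.05, 6 of the 53 were lower (7.69% of all genes) and 1 was higher (5.49% of all genes), and limma called none. ECSIT, a complex I factor, had 10.37, 9.56 and 9.84 FPKM in Combo, 12.6, 12.4 and 13.2 FPKM in Rx, 10.3, 10.8 and 14.3 FPKM in IR and 12.96, 12.6 and 13.3 FPKM in Con. Its Combo libraries lay below all of Rx and Con, at -0.35 (SE 0.097, limma adjusted p = 0.182), and IR 1 and IR 2 were nearly as low. TACO1, which aids translation of mitochondrial COX1, differed by -0.30 (SE 0.088, limma adjusted p = 0.193), the complex II factor SDHAF3 by -0.45 (SE 0.18, limma adjusted p = 0.327) and the ATP synthase factor ATPAF2 by -0.20 (SE 0.070, limma adjusted p = 0.284). UQCC3, a complex III factor, ran the other way, with 2.06, 2.74 and 2.36 FPKM in Combo, 2.07, 3.16 and 1.84 FPKM in Rx, 2.65, 2.68 and 2.57 FPKM in IR and 1.77, 1.80 and 1.51 FPKM in Con. All 3 treated groups were above Con without overlap, at 0.33 (SE 0.13, limma adjusted p = 0.338) for Combo and 0.43 (SE 0.13, limma adjusted p = 0.680) for IR. Of subunits whose names the rule leaves out, cytochrome c1 (CYC1) differed by -0.28 (SE 0.11, limma adjusted p = 0.328), NDUFAB1 by -0.19 (SE 0.11, limma adjusted p = 0.483) and cytochrome c (CYCS) by -0.046 (SE 0.16, limma adjusted p = 0.926).

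Of 14 listed regulators of nuclear or mitochondrial respiratory genes, 13 were tested. Their median was -0.026 in Combo against Con, with 8 lower (51.5% of all genes). TFAM, which packages and transcribes mitochondrial DNA, had 13.5, 13.3 and 11.4 FPKM in Combo, 15.5, 13.2 and 14.4 FPKM in Rx, 13.7, 15.0 and 15.4 FPKM in IR and 13.8, 14.3 and 16.2 FPKM in Con. Combo lay below Con, at -0.20 (SE 0.089, limma adjusted p = 0.375). NRF1 averaged 3.37 ± 0.366 FPKM in Combo and 3.45 ± 0.224 in Con (SD, n = 3 each), -0.028 (SE 0.097, limma adjusted p = 0.929). GABPA (-0.026), ESRRA (-0.0083) and PPRC1 (-0.034) were as close to 0. HIF1A, at 0.22 (SE 0.12, limma adjusted p = 0.433), and YY1, at 0.13 (SE 0.076, limma adjusted p = 0.472), were higher in every Combo library than in Con. By mean level over all libraries, the order was MYC at 261, HIF1A at 41.1, POLRMT at 24.4, ESRRA at 21.5, TFAM at 14.1, TFB2M at 13.1, YY1 at 12.98, PPRC1 at 9.49, TFB1M at 5.97, GABPA at 5.92, NRF1 at 3.42, GABPB1 at 2.31 and PPARGC1B at 1.09 FPKM. PPARGC1A, the coactivator PGC-1 alpha, averaged 0.00851 FPKM.

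The 13 subunits encoded in mitochondrial DNA differed from Con in the other direction. All 13 had a higher mean in Combo than in Con (48.5% of all genes), with a median of 0.18, and 12 of 13 did after TPM scaling. Limma called none, and none had an unadjusted p under 0.05. The medians were 0.29 in Rx against Con and 0.15 in IR against Con, where it was -0.053 without IR 3. Combo was below Rx for 13 of 13 (54% of all genes), with a median of -0.16 (9 of 13 after TPM scaling). Of the 13, those with the smallest unadjusted p in Combo against Con were MT-ND6 at 0.24 (SE 0.16, limma adjusted p = 0.542), MT-ND5 at 0.21 (SE 0.15, limma adjusted p = 0.577) and MT-ND4L at 0.27 (SE 0.20, limma adjusted p = 0.585). The deviation per library was 0.094, -0.082 and -0.038 in Combo, 0.038, 0.12 and 0.24 in Rx, -0.41, 0.021 and 0.38 in IR and -0.38, -0.28 and 0.12 in Con. IR 1, Con 1 and Con 2 were the lowest libraries, and all groups overlapped in part with another. Con 3 lay above every Combo library, and a run without Con 1 or Con 2 is not given for these genes.

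Other large families, chosen by name after the values of the respiratory chain were known, were lower too. In Combo against Con, 73 of 77 mitochondrial ribosomal protein genes were lower, with a median of -0.15, as were 77 of 82 cytosolic ribosomal protein genes (-0.20) and 35 of 36 proteasome genes (-0.20), beside -0.21 in the respiratory chain. In Combo against IR the medians were -0.27, -0.42 and -0.21, beside -0.33. These values are set side by side without a test of the difference between families. Protein-coding genes as a whole had a median of -0.0091 against Con, and 51.5% of all tested genes were lower.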

How the data were processed

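RNA sequencing of 12 libraries was deposited as 1 table of FPKM values that the authors made, with the build hg38 named in the submitters' processing notes; no aligner or counter is given in the sources used here. Gene identifiers, coordinates and lengths matched GENCODE 29 for all 58735 genes. FPKM times length came out whole in 100% of values within 0.01 read, which gave the read counts per library. FPKM carries the depth of each library through these reads and the factor per library, and longer union lengths lower a gene's FPKM. Tests used limma 3.58.1 in R 4.3.3 on log2(FPKM + 1), with a variance trend, over the 13038 genes with a mean of 1 FPKM or more, all 12 libraries and 8 comparisons; p-values are two-sided and Benjamini-Hochberg adjusted over all genes, with a threshold of 0.05. The method was tested on simulated data. Replicates differed beyond counting error in every pair (chi-square per degree of freedom 7.09 to 39.9), so none was counted as a repeat. A member counted in the totals is not reported here by name. Members and lists were chosen with earlier results of these data known. Members named by rule were the highest and lowest by level and by Combo against Con in each complex, the 3 highest and 3 lowest of IR against Con, Rx against Con and Combo against IR, isoform pairs, catalytic subunits and the SDH genes; of each other list up to 3 with the smallest unadjusted p in Combo against Con, and all regulators by level. Other named genes were chosen after their values were seen. Alternatives were another pseudocount (0.1), no filter, a limit of 5 FPKM, TPM and median-of-ratios scaling, a replicate block, voom on the recovered reads, fits of the compared groups alone, and leaving out libraries. Levels on transcript length were added after seeing the data.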

Additional observations from a re-analysis of the deposited data

How the results depend on the processing

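No member was called in any comparison under the alternatives tried, apart from SDHA in the averaged QTP comparison and members of Combo against IR without IR 1. With QTP averaged, 1 member, SDHA, was past the threshold at a limit of 5 FPKM and 1 with limma voom. In Combo against IR the number of members called ranged from 0 to 43 when single libraries were left out. The median difference of the members over those runs was -0.27 to -0.15 in Combo against Con, -0.44 to -0.22 in Combo against IR, -0.27 to -0.15 in Combo against Rx, -0.043 to 0.025 in Rx against Con, 0.00089 to 0.24 in IR against Con, -0.44 to -0.21 for the interaction, -0.21 to -0.10 for QTP averaged and -0.090 to 0.014 for radiation averaged. Without IR 3 and Combo 3 together, the median was -0.17 in Combo against IR and -0.15 for the interaction. With TPM scaling the interaction was -0.16 over the members, beside 0.17 over the 17393 genes of that run. As deposited these medians were -0.32 and -0.025, so TPM scaling moved members and all genes alike. The cause was not tested.

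Over all genes, limma's counts moved by more than 1.5 times in several settings. QTP averaged had 12 genes called, against 24 at a limit of 5 FPKM, 33 with voom, 6 with no filter, 1 with TPM scaling and 0 with median-of-ratios scaling. Combo against Con had 0, against 5 with no filter and 3 with TPM scaling, and Combo against IR had 0, against 956 without IR 1. With the replicate number as a block, 90 genes were called in Combo against Con and 3 with radiation averaged, with 0 members called in any comparison. Same-numbered libraries correlated at -0.21 to 0.35 (median 0.18) in their deviations and different-numbered ones at -0.27 to 0.26 (median -0.079). Not every same-numbered pair was over 0.1, so the numbers were not taken to pair the libraries, although 10 of 12 libraries correlated best with their own number.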
